A study of Mus musculus with 10 samples.

Results

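The 9 genes Pdha1, Cs, Idh2, Idh3a, Idh3b, Ogdh, Suclg1, Fh1 and Mdh2 encode mitochondrial matrix enzymes of the citric acid cycle and of its entry through pyruvate dehydrogenase. Each was taken as the probe set whose single annotated symbol is that gene, and each had 1 such probe set. They are 9 of 19938 genes with a row of their own, and all 9 were among the 14953 genes tested after the filter on dim rows. RNA came from B220+ cells sorted from pre-B colonies at day 7 of methylcellulose culture. The bone marrow was from 5 Hspa9+/+ mice, wild type littermates, and 5 Hspa9+/- mice, here called heterozygous, with 1 culture and 1 array per mouse. No treatment was applied. How the Hspa9 allele was made, and the strain and age of the mice, are not stated in the labels. The design sets B cell precursors with 1 Hspa9 allele against those with both. Levels are the authors' RMA values on the log2 scale. A positive difference means a higher mean in the heterozygous arrays, and n = 5 per genotype unless arrays are left out.

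The citric acid cycle oxidises acetyl-CoA in the mitochondrial matrix and feeds the electrons to the respiratory chain as NADH and reduced flavin. Pyruvate dehydrogenase makes the acetyl-CoA from pyruvate, and intermediates that leave the cycle supply carbon for lipids and amino acids in dividing cells. The enzymes are encoded in the nucleus, made in the cytosol and imported, and mortalin, the product of Hspa9, is the matrix chaperone that draws such precursors in. The arrays measure the RNA of the enzymes, not their import, amount or activity.

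Array quality and labels were checked first. Array medians over all probe sets ran from 5.38 to 5.49. Hspa9 was at 60.3% of the wild type level in heterozygous cells (95% interval 45.4 to 80.0%, two-sided exact permutation p = 0.0159), with heterozygous 1 at 9.52 above wild type 1 at 9.49. The 9 measured of 10 B lineage markers had means of 11.13 to 11.23 in wild type and 10.79 to 11.23 in heterozygous arrays. Other cells were also seen: the mean of the 15 measured monocyte and macrophage markers, 14 of which passed the filter, was 8.84 in wild type 1, 7.34 in wild type 2, 5.45 to 5.63 in the other wild type arrays, 9.31 in heterozygous 2 and 6.78 to 7.03 in the other heterozygous arrays. Plasmacytoid dendritic cell markers (6 of 6 measured) were at 6.67 to 7.60 and 7.29 to 8.54, and T cell and NK cell markers (8 of 9 measured, 4 of which passed the filter) at 4.40 to 4.75 and 4.88 to 5.11. Neutrophil markers (13 of 13) were at 4.96 to 6.80 and 5.53 to 7.40, and erythroid markers (7 of 10) at 5.30 to 5.67 and 5.44 to 5.75. Ptprc, which encodes the sort marker, was at 9.35 to 10.07 in wild type and at 9.61, 9.76, 9.37, 8.33 and 7.89 in heterozygous arrays. Results are therefore also given without wild type 1 and heterozygous 2, and without heterozygous 4 and 5.

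None of the 9 enzymes differed between the genotypes past the limma threshold (adjusted p under 0.05), as 0% of all genes did. Idh2 and Mdh2 had higher means in heterozygous cells at an unadjusted p under 0.05, 2 of 9 higher and 0 of 9 lower, where 6.79% of all genes tested were higher and 4.25% lower, 11% in all. The same genes, Idh2 and Mdh2, had p under 0.05 by the exact permutation test. The median difference of the 9 was 0.031 and the mean 0.061, against a median of 0.058 over all genes tested, and 5 of 9 differences lay above 0, where 61.3% of all genes did. The genotypes overlapped in all 9 genes, where 2.28% of all genes did not overlap, 1.47% higher in heterozygous cells and 0.809% lower. As bulk samples were measured, fewer cells of a type and less RNA per cell cannot be told apart in any of these values.

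**Figure D1:**
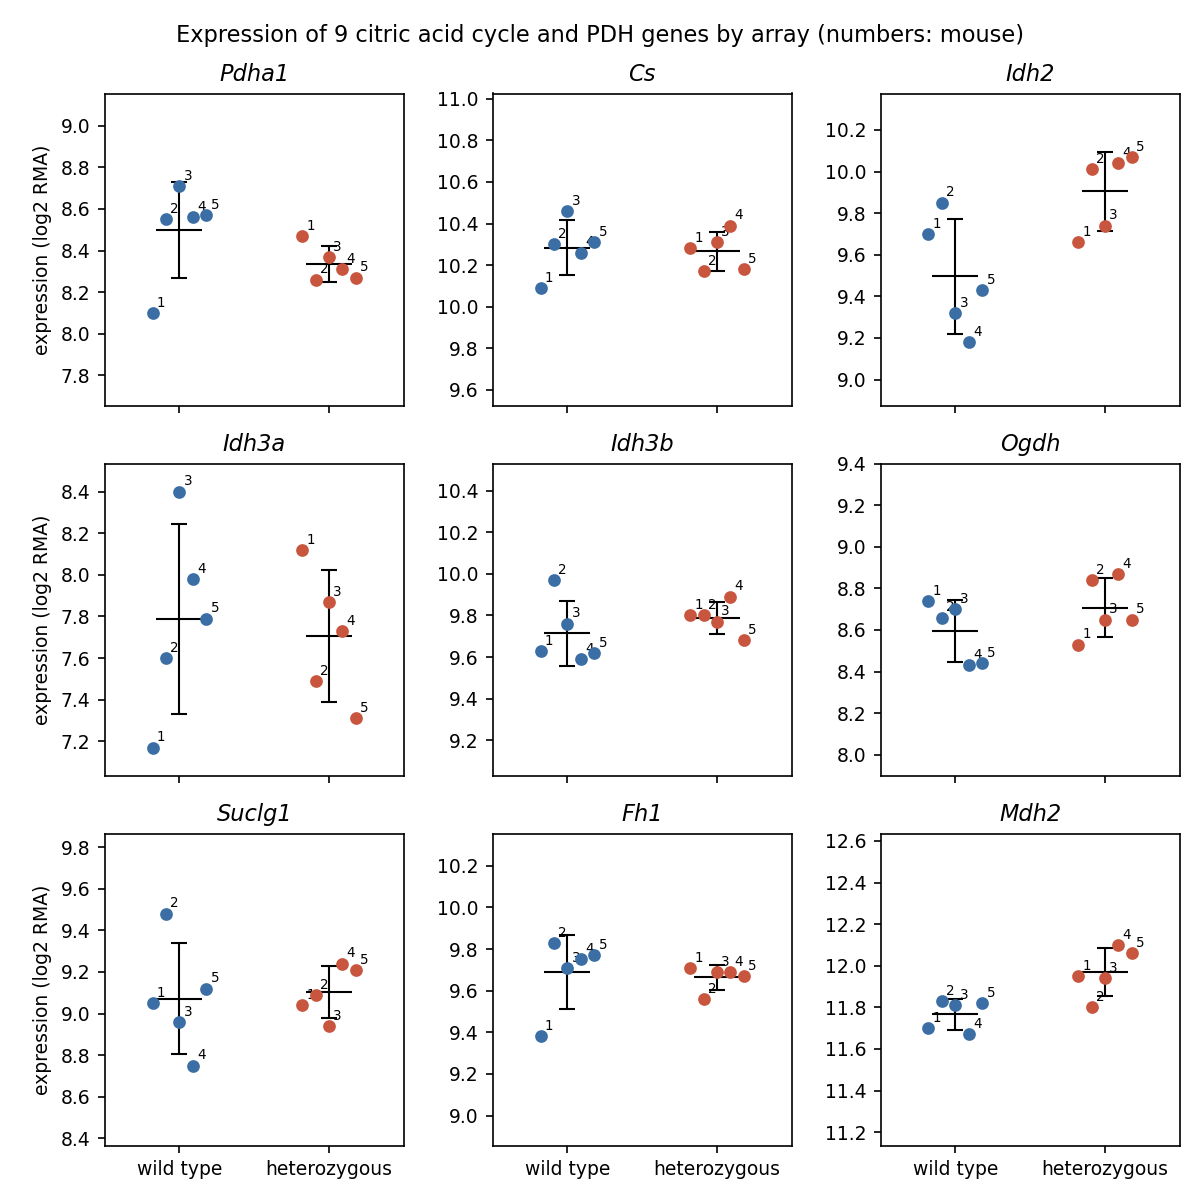
Expression of the 9 enzymes (log2 RMA, vertical axes all spanning the same range) in wild type (blue) and heterozygous (red) arrays, with mice numbered and black bars for mean and SD. Idh2 and Mdh2 sit higher in heterozygous arrays with some overlap, and wild type 1 is lowest in Pdha1, Cs, Idh3a and Fh1.

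At the entry, Pdha1 encodes the alpha subunit of pyruvate dehydrogenase, the subunit that carries its regulatory phosphorylation sites. Its level was 8.10, 8.55, 8.71, 8.56 and 8.57 in wild type arrays 1 to 5 and 8.47, 8.26, 8.37, 8.31 and 8.27 in heterozygous arrays 1 to 5. Wild type 1 lay below every heterozygous array and the other 4 wild type arrays lay above all of them. The difference was -0.16 (SE 0.117, limma adjusted p = 0.574), or 89.4% of wild type with a 95% interval of 74.8 to 107%. Without wild type 1 it was -0.26 (unadjusted p = 0.0156, limma adjusted p = 0.270), and the genotypes then did not overlap, as in 5.40% of all genes without that array. Pdha1 lies on chromosome X.

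Cs encodes citrate synthase, which joins acetyl-CoA to oxaloacetate. Its values ran from 10.09 in wild type 1 to 10.46 in wild type 3, and the heterozygous arrays, at 10.17 to 10.39, lay within that range. The difference was -0.018 (SE 0.0934, limma adjusted p = 0.941) and its 95% interval of -0.22 to 0.19 holds changes of either sign. Leaving out wild type 3 turned it to 0.026.

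At the isocitrate step, Idh2 encodes the NADP-dependent isocitrate dehydrogenase, which supplies NADPH in the matrix. Its level was 9.70, 9.85, 9.32, 9.18 and 9.43 in wild type arrays 1 to 5 and 9.66, 10.01, 9.74, 10.04 and 10.07 in heterozygous arrays 1 to 5. All 5 heterozygous arrays were above the wild type mean of 9.50 and 3 were above the highest wild type array. The difference was 0.41 (SE 0.145, unadjusted p = 0.0174, limma adjusted p = 0.384, exact permutation p = 0.0397), or 133% of wild type with a 95% interval of 106 to 165%. It was 0.43 without wild type 1 and heterozygous 2, and 0.31 (unadjusted p = 0.109, limma adjusted p = 0.853) without heterozygous 4 and 5. With the plasmacytoid dendritic cell marker mean as covariate it was 0.27 (unadjusted p = 0.215, limma adjusted p = 0.568). With the macrophage marker mean it was 0.31 (unadjusted p = 0.0372, limma adjusted p = 0.303) and with Pax5 0.26 (unadjusted p = 0.0147, limma adjusted p = 0.333).

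Idh3a and Idh3b encode subunits of the NAD-dependent isocitrate dehydrogenase, the catalytic alpha subunit and the beta subunit, a regulated step of the cycle. Idh3a was the most variable of the 9 genes, at 7.17, 7.60, 8.40, 7.98 and 7.79 in wild type arrays 1 to 5 and 8.12, 7.49, 7.87, 7.73 and 7.31 in heterozygous arrays 1 to 5, a range of 1.23. The genotypes overlapped almost entirely. The difference was -0.084 (SE 0.223, limma adjusted p = 0.879), with a wide 95% interval of -0.57 to 0.41, and without wild type 3 it was 0.068. Idh3b ran from 9.59 to 9.97, both in wild type arrays, with a difference of 0.074 (SE 0.0967, limma adjusted p = 0.743, 95% interval -0.14 to 0.29).

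Ogdh encodes the dehydrogenase subunit of the 2-oxoglutarate dehydrogenase complex, and Suclg1 the alpha subunit of succinyl-CoA synthetase, which makes a nucleoside triphosphate directly. Ogdh was at 8.43 to 8.74 in wild type and 8.53 to 8.87 in heterozygous arrays, a difference of 0.11 (SE 0.105, limma adjusted p = 0.649, 95% interval -0.12 to 0.34). Suclg1 was at 8.75 to 9.48 and 8.94 to 9.24, a difference of 0.031 (SE 0.132, limma adjusted p = 0.928, 95% interval -0.26 to 0.32). The highest Suclg1 value, 9.48, was that of wild type 2, and the lowest, 8.75, that of wild type 4. Without wild type 2 the difference was 0.13 and without wild type 4 it was -0.048, so its direction rests on single arrays.

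Fh1 encodes fumarase, which hydrates fumarate to malate, and Mdh2 the matrix malate dehydrogenase, which closes the cycle and takes part in the malate-aspartate shuttle. Fh1 was at 9.38 in wild type 1, 9.71 to 9.83 in the other wild type arrays, 9.56 in heterozygous 2 and 9.67 to 9.71 in the other heterozygous arrays. Within each genotype the array highest in macrophage markers was the one lowest in Fh1. The difference was -0.022 (SE 0.101, limma adjusted p = 0.932, 95% interval -0.24 to 0.20). Without wild type 1 it was -0.10 (unadjusted p = 0.263, limma adjusted p = 0.531). All heterozygous arrays then lay below every wild type array, but barely, as heterozygous 1 and wild type 3 both rounded to 9.71. Of all genes, 5.40% did not overlap without wild type 1. Mdh2 was at 11.70, 11.83, 11.81, 11.67 and 11.82 in wild type arrays 1 to 5 and 11.95, 11.80, 11.94, 12.10 and 12.06 in heterozygous arrays 1 to 5. All heterozygous arrays except heterozygous 2 were above every wild type array. The difference was 0.21 (SE 0.0884, unadjusted p = 0.0404, limma adjusted p = 0.442, exact permutation p = 0.0317), or 115% of wild type with a 95% interval of 101 to 132%. Without heterozygous 2 the genotypes did not overlap, as in 5.12% of all genes without that array, and the difference was 0.25 (unadjusted p = 0.0190, limma adjusted p = 0.327), and without heterozygous 4 and 5 it was 0.13 (unadjusted p = 0.197, limma adjusted p = 0.874). With quantile normalization it was 0.18 (unadjusted p = 0.107, limma adjusted p = 0.630) and with the plasmacytoid dendritic cell marker mean as covariate 0.30 (unadjusted p = 0.0326, limma adjusted p = 0.371).

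**Figure D2:**
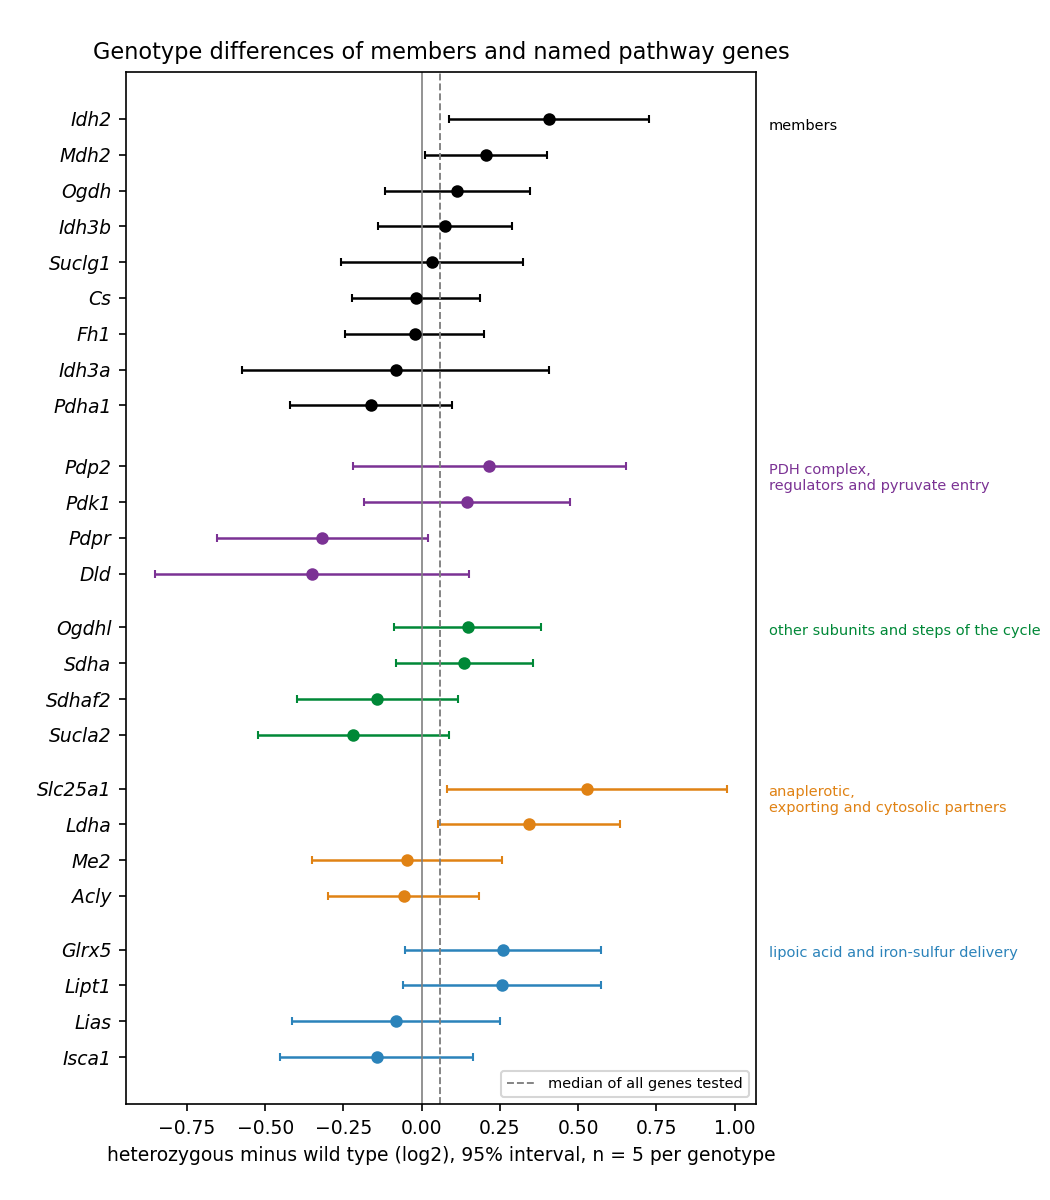
Heterozygous minus wild type differences (log2, horizontal axis) with limma's 95% intervals for the 9 enzymes (members) and for named genes of the 4 pathway lists, n = 5 per genotype; the dashed line is the median of all genes tested, 0.058. The intervals of Idh2, Mdh2, Slc25a1 and Ldha lie above 0, and no gene shown passed adjustment over all genes.

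The sequences upstream of Idh2 and Mdh2, the genes with the lower p-values, and of Pdha1, with the lowest difference, are shown to set their promoters side by side. They are the 250 bases before the annotated start, 5′ to 3′ on the strand of the gene, from RefSeq and assembly GRCm38.p6: chr7:80115351-80115600 (minus strand) for Idh2, chr5:135778399-135778648 (plus strand) for Mdh2 and chrX:160138431-160138680 (minus strand) for Pdha1. Capitals mark the CCAAT box in Idh2, and TCTCGCGAGA and the cyclic AMP response element TGACGTCA in Mdh2.
Idh2: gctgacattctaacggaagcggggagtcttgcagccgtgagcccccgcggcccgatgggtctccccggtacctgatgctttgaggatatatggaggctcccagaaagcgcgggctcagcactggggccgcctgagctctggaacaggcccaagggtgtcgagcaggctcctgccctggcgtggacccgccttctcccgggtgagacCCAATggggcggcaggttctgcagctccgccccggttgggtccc
Mdh2: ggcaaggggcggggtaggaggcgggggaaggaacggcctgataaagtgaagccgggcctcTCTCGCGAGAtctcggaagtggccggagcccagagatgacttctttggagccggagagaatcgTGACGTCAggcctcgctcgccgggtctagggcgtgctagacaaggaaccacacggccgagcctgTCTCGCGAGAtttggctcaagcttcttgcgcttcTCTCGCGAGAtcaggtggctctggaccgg
Pdha1: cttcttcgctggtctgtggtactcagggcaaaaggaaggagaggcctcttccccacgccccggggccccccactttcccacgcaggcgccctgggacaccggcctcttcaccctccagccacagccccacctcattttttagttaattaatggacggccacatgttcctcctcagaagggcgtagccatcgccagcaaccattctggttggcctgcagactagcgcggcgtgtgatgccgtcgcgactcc
An entry was found for 8 of the 9 genes, without Idh3a. On both strands, CCAAT was present upstream of Idh2 (44 bases from the start), Cs, Idh3b, Fh1 and, for 4 of its 6 listed starts, Ogdh, and 33.8% of the 32851 windows of the same length held it. Mdh2 held 3 copies of TCTCGCGAGA, a palindrome, beginning 190, 63 and 29 bases before the start. It was looked for after the sequence was viewed, as the palindrome of 10 bases that occurs most often in that window: 0.39% of the windows held it at all and 2 windows held 3 or more. TGACGTCA was found in Mdh2 and for 3 starts of Ogdh, against 1.55% of windows. Of the other motifs searched, GGGCGG was in Idh2, Mdh2, Cs, Fh1 and 2 starts of Ogdh (32.7% of windows) and CACGTG in 3 starts of Ogdh (6.02%), while CCGGAAG (6.91%) and the ERR motif AAGGTCA (4.08%) were in none of the members' windows. The 3 windows printed hold no overlap between the marked motifs. A match describes the letters and is no measure of binding.

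Within the genotypes the 9 genes varied in different directions. Correlations between them were computed over the 10 arrays after removing each genotype's mean, with exact permutation of arrays within genotype (14400 arrangements, two-sided) and adjustment over the 36 pairs. The median of the 36 was 0.315, with a range of -0.775 to 0.878, and 26 were above 0. All arrays were normalized together, and the points share whatever sets one mouse's culture apart. Pdha1, Idh3a and Cs had positive correlations with each other, also without wild type 1 and heterozygous 2. So had Idh2, Suclg1, Ogdh, Idh3b and Mdh2, though Ogdh with Mdh2 was only at 0.044 over all arrays. Idh3b with Suclg1 went from 0.689 to -0.140 without wild type 2 and 4, the arrays farthest out in Idh3b. Idh3b and Mdh2 were also positively correlated with Pdha1, Idh3a and Cs over all arrays, so the sets are not distinct. Fh1 was positively correlated with Pdha1, Idh3a and Cs over all arrays (r = 0.859, 0.569 and 0.678), but without wild type 1 and heterozygous 2 these values were -0.253, -0.431 and -0.288. Of the 36 pairs 1 passed the adjustment, Pdha1 with Idh3a (r = 0.878, p = 0.000278, adjusted p = 0.0100; rho = 0.900, p = 0.00431, exact permutation), though the rank correlation did not (adjusted p = 0.112). Without wild type 1 and 3, the arrays farthest out in Pdha1, r was 0.889, and without wild type 1 and heterozygous 2 it was 0.928.

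Idh2 ran opposite to Idh3a (r = -0.775, exact permutation p = 0.0210, adjusted p = 0.152; rho = -0.850, p = 0.00931), which did not pass the adjustment. It was -0.724 without wild type 3 and 4, the arrays farthest out in Idh2, and -0.759 without wild type 1 and heterozygous 2. Idh2 and Suclg1 ran together (r = 0.853, exact permutation p = 0.00458, adjusted p = 0.0825; rho = 0.850, p = 0.00931; 0.720 without wild type 3 and 4). The correlation of Pdha1 with Fh1 (exact permutation p = 0.0713; rho = 0.50, p = 0.192), which turned in sign without wild type 1 and heterozygous 2, rested on those arrays.

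**Figure D3:**
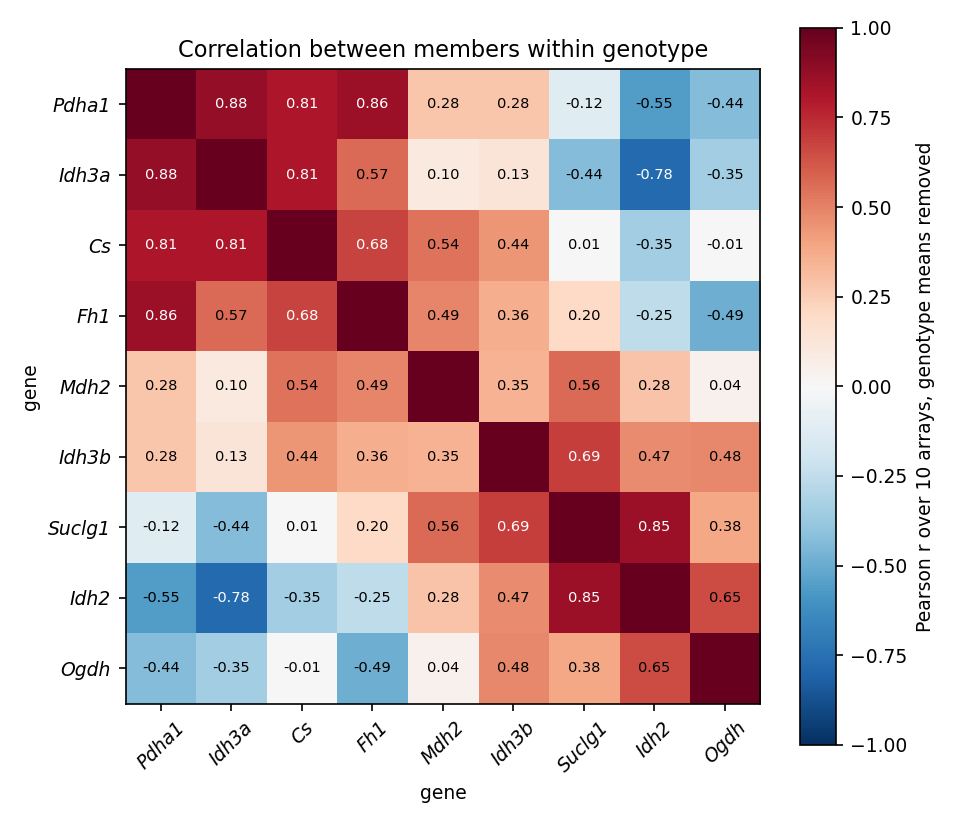
Pearson correlation between the 9 enzymes over 10 arrays with genotype means removed, coloured from -1 (blue) to 1 (red). Pdha1, Idh3a, Cs and Fh1 are red against each other, Fh1 only with wild type 1 and heterozygous 2 included. Suclg1, Idh2, Ogdh and Idh3b are also red against each other. Idh2 against Idh3a is lowest at -0.775, and 1 of 36 pairs passed adjustment.

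The levels of Idh3a, Idh2 and Pdha1 were also set beside those of Pax5 and Ebf1, transcription factors of the B lineage. Both are in the B lineage marker list and were singled out after their values were seen, so the correlations are descriptions with no test. Pax5, which sets B cell identity, was at 9.40, 9.56, 11.06, 10.94 and 10.44 in wild type arrays 1 to 5 and 10.56, 9.22, 10.30, 9.75 and 9.21 in heterozygous arrays 1 to 5. The widest gap in these values, from 9.75 to 10.30, left 5 arrays on each side, too few for a correlation within each. Its own genotype difference was -0.47 (SE 0.381, limma adjusted p = 0.605). The rest of the B lineage list did not all follow Pax5. Apart from Ebf1, every other measured marker was lower in wild type 3 and 4 than in wild type 1 and 2. Cd79a, for one, was at 11.67 and 11.65 against 11.89 and 12.13. Blnk, Vpreb3 and Rag1 were higher in heterozygous 1 and 3 than in heterozygous 2 and 5, as was Pax5. Within genotype, over the 10 arrays, r with Pax5 was 0.934 for Idh3a (rho = 1), -0.930 for Idh2 (rho = -0.850) and 0.753 for Pdha1 (rho = 0.900). Without wild type 3 and 4, the arrays farthest out in Pax5, the 3 values were 0.922, -0.903 and 0.652. Of the 14952 other genes tested, 2.77% had a correlation with Pax5 at or above that of Idh3a, 1.23% at or below that of Idh2 and 13% at or above that of Pdha1. The first principal component, the main axis on which the arrays differed, held 52.8% of the variance. In wild type arrays 1 to 5 it stood at -44.38, -12.14, 40.08, 43.48 and 26.64. In heterozygous arrays 1 to 5 it stood at 10.87, -50.32, 4.44, -2.28 and -16.38. Within each genotype this is close to the order of Pax5, and the part of that axis in these correlations was not tested.

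For the other 6 enzymes r with Pax5 ran from -0.656 for Suclg1 to 0.651 for Cs, with Fh1 at 0.472 and Mdh2 at 0.0044. These values depended on wild type 1 and heterozygous 2. Without those arrays r was -0.859 for Suclg1, 0.385 for Cs, -0.507 for Fh1 and -0.668 for Mdh2. Ebf1, which acts with Pax5 in B lineage commitment, gave r = 0.885 with Idh3a, -0.953 with Idh2 and 0.673 with Pdha1, and 0.886, -0.919 and 0.562 without wild type 3 and 4. Pax5 itself was lower where the macrophage marker mean was higher within genotype (r = -0.766; rho = -0.400; -0.658 without wild type 1 and heterozygous 2), and whether other cells in the sort play a part in these relations was not tested.

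**Figure D4:**
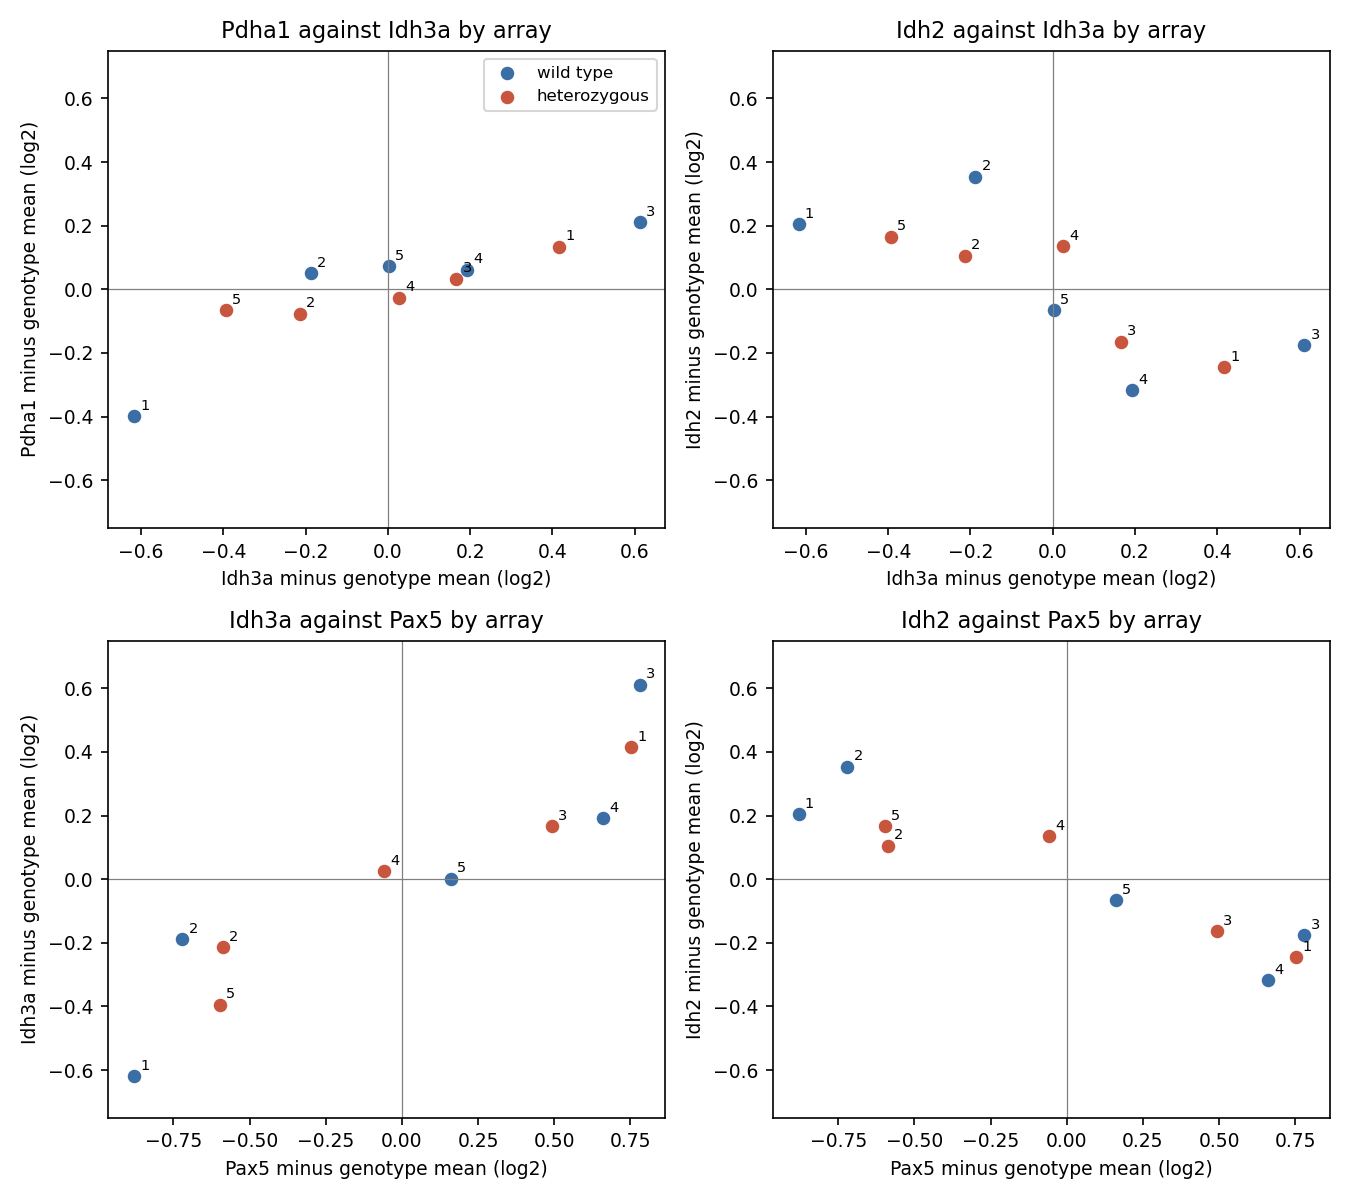
Deviations from the genotype mean (log2) by array, mice numbered, wild type in blue and heterozygous in red: Pdha1 and Idh2 against Idh3a (top) and Idh3a and Idh2 against Pax5 (bottom). Pdha1 and Idh3a vary together and Idh3a varies with Pax5, while Idh2 runs against both.

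With the macrophage marker mean, 9 relations were computed within genotype, and none passed adjustment. The lowest were Pdha1 (r = -0.754, p = 0.0363, adjusted p = 0.114; rho = -0.450, p = 0.246, exact permutation) and Fh1 (r = -0.745, p = 0.0333, adjusted p = 0.114; rho = -0.350, p = 0.380, exact permutation), and the highest was Idh2 (r = 0.624, p = 0.107, adjusted p = 0.177; rho = 0.250, p = 0.544, exact permutation). Without wild type 1 and heterozygous 2, the arrays farthest out in these markers, r was -0.173 for Pdha1, 0.783 for Fh1 and 0.724 for Idh2. The negative relation of both Pdha1 and Fh1 thus rested on those arrays. The other enzymes also moved without them. Idh3b went from 0.162 to 0.783, Suclg1 from 0.289 to 0.776 and Mdh2 from -0.499 to 0.296. Cs went from -0.710 to -0.183, Idh3a from -0.700 to -0.435 and Ogdh from 0.590 to 0.301. Among the arrays then left, wild type 2 stood apart from its genotype. Its marker mean was 7.34, against 5.45 to 5.63 in the other wild type arrays, and heterozygous arrays were at 6.78 to 7.03. Wild type 2 was also the highest wild type array in Fh1, Idh2, Idh3b and Suclg1. The high r of these genes may thus rest on that array, and r without it was not computed.

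**Figure D5:**
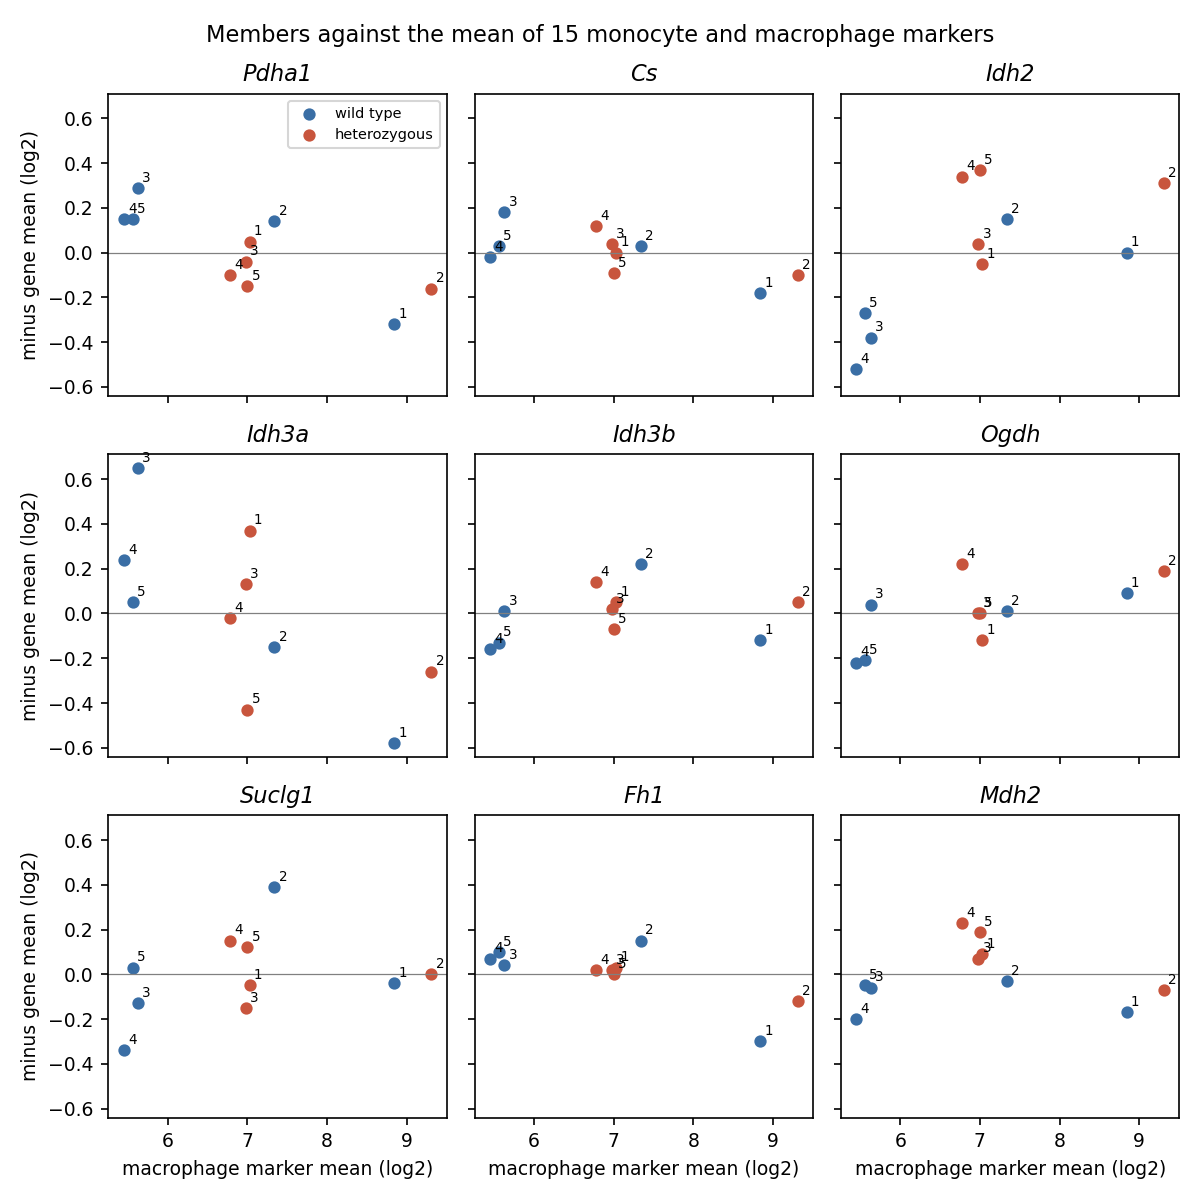
Each enzyme's level minus its mean over all arrays (log2, vertical axis) against the mean of 15 monocyte and macrophage markers (log2, horizontal axis), mice numbered, wild type in blue and heterozygous in red. Wild type 1 and heterozygous 2 stand at the right, at 8.84 and 9.31, with low Fh1 and Pdha1.

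The rest of the pathway was read from 4 lists of 55 genes, 49 of them tested. Pdk4 and Me1 fell under the filter, and the other untested genes of the lists were not analysed here. At an unadjusted p under 0.05 2 of 49 genes were higher and 0 lower, where 11% of all genes were called, and none passed the limma adjustment. The median difference of the 49 was 0.067, against 0.058 over all genes.

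Of the other subunits, regulators and carriers at the pyruvate step, 0 of 11 passed in either direction and the median difference was 0.012. Dld, the dihydrolipoamide dehydrogenase shared by the 2-oxoacid dehydrogenases, was at 8.14 to 8.92 in wild type and 7.50 to 8.53 in heterozygous arrays (-0.35, SE 0.228, limma adjusted p = 0.544), but its difference was -0.20 without heterozygous 5 and -0.055 without heterozygous 4 and 5. Pdpr, the regulatory subunit of the phosphatase that activates pyruvate dehydrogenase, was at 6.45 to 6.97 and 6.07 to 6.68 (-0.32, SE 0.153, unadjusted p = 0.0624, limma adjusted p = 0.472). The catalytic subunit Pdp2 was at 6.27 to 7.02 and 6.17 to 7.21 (0.22, SE 0.198, limma adjusted p = 0.646), and its difference was 0.38 (unadjusted p = 0.0328, limma adjusted p = 0.355) without heterozygous 2 and 0.12 without heterozygous 4. The inactivating kinase Pdk1 was at 7.12 to 7.87 and 7.35 to 7.88 (0.14, SE 0.149, limma adjusted p = 0.681).

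Of the other steps of the cycle, 0 of 13 passed in either direction and the median difference was 0.064. The genes named by their p were Sucla2, a beta subunit of succinyl-CoA synthetase (-0.22, SE 0.138), Sdhaf2, which helps attach the flavin of succinate dehydrogenase (-0.14, SE 0.117), Ogdhl, a relative of Ogdh (0.15, SE 0.107), and Sdha, the flavoprotein of succinate dehydrogenase (0.14, SE 0.0996). Their limma adjusted p ran from 0.539 to 0.610. Ogdhl was dim, at 4.63 to 4.97 in wild type and 4.66 to 5.10 in heterozygous arrays, and its difference was 0.041 with quantile normalization. Partner subunits of the 9 enzymes ran from Dld and Sucla2, given above, to Idh3g (0.074). Between them were Dlat (-0.040), Dlst (-0.00058), Pdhb (0.0058), Suclg2 (0.064) and Pdhx (0.067).

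Among anaplerotic, exporting and cytosolic partner genes 2 of 16 were higher at an unadjusted p under 0.05 and 0 lower, 14 of 16 differences were above 0, and the median was 0.18. Over all genes 6.79% were higher, 61.3% of differences were above 0 and the median was 0.058. Slc25a1, the carrier that exports citrate from the matrix, was at 9.92, 10.07, 9.47, 9.19 and 9.51 in wild type arrays 1 to 5 and 9.90, 9.91, 9.92, 10.46 and 10.63 in heterozygous arrays 1 to 5. Heterozygous 4 and 5 were above every other array and the remaining 3 lay below wild type 1 or level with it. The difference was 0.53 (SE 0.204, unadjusted p = 0.0250, limma adjusted p = 0.406, exact permutation p = 0.0794), and without heterozygous 4 and 5 it was 0.27 (unadjusted p = 0.193, limma adjusted p = 0.874). Ldha, the lactate dehydrogenase subunit that draws pyruvate away from the cycle, was at 10.34 to 10.91 in wild type and 10.85 to 11.22 in heterozygous arrays (0.34, SE 0.132, unadjusted p = 0.0247, limma adjusted p = 0.406, exact permutation p = 0.0476). Acly, which cleaves exported citrate in the cytosol, was at -0.057 (SE 0.110), and the malic enzyme Me2 at -0.047 (SE 0.138), with limma adjusted p of 0.827 and 0.890.

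Genes that supply lipoic acid and iron-sulfur clusters to these enzymes had 0 of 9 past the unadjusted threshold in either direction and a median difference of 0.11. Glrx5, a glutaredoxin of iron-sulfur cluster transfer, was at 0.26 (SE 0.142, 0.17 without heterozygous 5 and 0.077 without heterozygous 4 and 5) and the lipoyltransferase Lipt1 at 0.26 (SE 0.144). The cluster assembly gene Isca1 was at -0.14 (SE 0.141, -0.053 without wild type 1) and the lipoyl synthase Lias at -0.082 (SE 0.151). Their limma adjusted p ran from 0.502 to 0.820. Lipt1 was dim, at 4.87 to 5.58 in wild type and 5.19 to 5.58 in heterozygous arrays. Its difference was 0.16 with quantile normalization and 0.098 with array weights.

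The genes outside the 9 whose values were most like the mean of the 9, with genotype means removed, were Gmip (r = 0.952), Cinp (0.925), Clp1 (0.920), Enc1 (0.909) and Nme7 (0.906) over 10 arrays. These are descriptions, since 1% of all genes tested had an r above 0.749, and the mean joins genes that ran in opposite directions.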

How the data were processed

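RNA of sorted B220+ cells was amplified as cDNA and hybridised to Affymetrix mouse gene arrays, 1 per mouse. The deposited table holds log2 values that the authors computed per gene by RMA in Expression Console, per the labels. The program's version and annotation are not stated there. RMA gives all arrays a common distribution and so hides a shift shared by most genes. The number of arrays limits the precision.

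Of 35556 probe sets, 21789 had 1 gene symbol in the platform annotation, 1621 had several and 12146 were unlisted. To match the pathway and marker lists, platform symbols were updated by Entrez identifier through the RefSeq table of assembly GRCm38.p6 (21698 matched). Per symbol the probe set of highest mean was kept (19938), and dim rows, with means up to the 25th percentile (4.52 log2), were dropped. The test was limma 3.58.1 (R 4.3.3; lmFit and eBayes, moderated SE, Benjamini-Hochberg adjustment over 14953 genes, threshold 0.05), also tested on simulated data. Single genes were also compared by two-sided exact permutation over 252 splits (smallest p 0.0079). The members and lists were chosen with earlier results of these data known. Named genes are the 9 members, Hspa9, Ptprc and the 2 genes of smallest p in each direction of each pathway list. To these come the 5 genes most like the members' mean. Idh3g, Dlst, Pdhb, Dlat, Suclg2, Pdhx, Pax5, Ebf1, Cd79a, Blnk, Vpreb3 and Rag1 were chosen after their values were seen.

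Replicate numbers are shared by the genotypes. The deviations of same-numbered arrays correlated between -0.528 and 0.534. These values neither show nor exclude that the numbers pair the samples, which were treated as unpaired. No arrays held identical values. Alternatives were other filters, every probe set as a row, other normalizations, variance models, array weights, the replicate block, marker levels as covariates, and arrays left out.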

Additional observations from a re-analysis of the deposited data

Results flagged for a closer look

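Among 54 groups of 5 arrays, 1 per genotype for each named gene other than the 5 most like the mean of the enzymes, which were not screened, 3 had an array far from the other 4, and chance flags about 1 in 20 groups. Pdha1 was at 8.10 in wild type 1, where the other wild type arrays were at 8.55 to 8.71. Fh1 was at 9.38 in wild type 1, where the others were at 9.71 to 9.83, and at 9.56 in heterozygous 2, where the others were at 9.67 to 9.71. Wild type 1 and heterozygous 2 are also the arrays highest in macrophage markers, at 8.84 and 9.31, and the part of those cells in these values was not tested.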

How the results depend on the processing

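Over 24 refits with limma, each with 1 choice changed or arrays left out, no enzyme passed the adjusted threshold. Pdha1, Idh2, Ogdh and Mdh2 kept their direction in 24 of 24, Idh3b in 23, Fh1 in 19 and Cs, Idh3a and Suclg1 in 18. Idh2 had an unadjusted p under 0.05 in 22 and Mdh2 in 9, both higher, and Pdha1 in 3, lower. The cause of the changes below was not tested. The alternatives with plasmacytoid dendritic cell markers or Pax5 as covariate, and without heterozygous 4 and 5 together, were chosen after seeing the data.

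The number of enzymes at an unadjusted p under 0.05, 2 as reported, was 1 with rows above the median row, quantile normalization, cyclic loess, array medians centred, the replicate block, or plasmacytoid dendritic cell markers or Pax5 as covariate, 3 with array weights or without wild type 1 and heterozygous 2 (Idh2 and Mdh2 higher, Pdha1 lower), 0 without heterozygous 4 and 5, and 1 to 2 with single arrays left out. Enzymes whose genotypes did not overlap, 0 as reported, numbered 3 without wild type 1 and heterozygous 2, and 0 to 2 with single arrays left out (2 without wild type 1, 1 without heterozygous 2). Of all genes 8.65%, 5.40% and 5.12% did not overlap at these 3 settings, against 2.28% with every array. Genes past the adjusted threshold, 0 as reported, numbered 137 with array weights, 26 without wild type 1 and heterozygous 2, and 0 to 22 with single arrays left out (22 without wild type 1, 3 without heterozygous 2). Pathway genes at an unadjusted p under 0.05, 2 as reported, numbered 4 with cyclic loess, 7 with array weights, 1 with the replicate block, 6 with the macrophage covariate, 7 with the plasmacytoid dendritic cell covariate, 5 with Pax5, 4 without wild type 1 and heterozygous 2, 0 without heterozygous 4 and 5, and 1 to 6 with single arrays left out. Whether the replicate numbers pair the arrays is not settled, though 0 of 5 wild type arrays correlated best with its own number. With the replicate block the unadjusted limma p was 0.0958 for Mdh2 and 0.0315 for Idh2.

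Hspa9 differed by -0.47 (unadjusted limma p = 0.0788) with the plasmacytoid dendritic cell covariate and by -0.67 (exact permutation p = 0.0536) without heterozygous 4 and 5, and by -0.84 to -0.62 with single arrays left out. Differences turned in sign as follows. With the macrophage covariate Cs was at 0.035, Idh3a 0.097, Suclg1 -0.0080, Fh1 0.043, Me2 0.079 and Lias 0.0090. With the plasmacytoid dendritic cell covariate Cs was at 0.045, Idh3a 0.083, Idh3b -0.023, Suclg1 -0.043, Fh1 0.048, Acly 0.0081 and Me2 0.13. With Pax5 as covariate Cs was at 0.032, Idh3a 0.16, Suclg1 -0.061, Fh1 0.020, Me2 0.093 and Lias 0.042. Acly was at 0.0082 with array weights. Without heterozygous 4 and 5 Idh3a was at 0.039, Suclg1 -0.048 and Lias 0.040. With single arrays left out Cs ran from -0.066 to 0.026, Idh3a from -0.24 to 0.068, Suclg1 from -0.048 to 0.13, Fh1 from -0.10 to 0.013 and Me2 from -0.15 to 0.020, while Lias stayed below 0 (-0.23 without wild type 1 and heterozygous 2).

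With 5 arrays per genotype, the number of arrays limits the precision. Among the 9 enzymes the 95% interval was widest for Idh3a, from -0.57 to 0.41 on the log2 scale, and narrowest for Mdh2, from 0.011 to 0.40.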
